A study of Mus musculus with 13 samples.

Results

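The genes described here code for proteins of the epithelial tight junction and of the polarity complexes that position it: *Cldn3*, *Cldn4*, *Cldn7*, *Tjp1*, *F11r*, *Patj*, *Pard3*, *Pard6b* and *Mpp5*. They were chosen by name, with earlier results of these data known, and all 9 were found among the 13222 genes of the deposited table. All 9 also passed the filter on low reads, so that they are 9 of the 12319 genes tested. With doxorubicin (DOX), *Patj* and *Pard3* were lower than in control cells by more than 2-fold. For *Pard3* the difference was close to 2-fold, and it came under 2-fold with scaling by library size alone or when some libraries were left out. *Tjp1* was lower by less than 2-fold, and this did not pass the test in 6 of the 23 alternatives tried. No difference was found past the test for the 3 claudins, *F11r*, *Pard6b* or *Mpp5*. With IL-17A alone no member passed the test.

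Tight junctions seal the space between neighbouring epithelial cells near their apical side. Claudins are the membrane proteins that form the sealing strands, F11r (JAM-A) is an immunoglobulin-type adhesion protein beside them, and Tjp1 (ZO-1) is the scaffold that ties the strands to actin. The place of the junction is set by the Crumbs complex, in which Mpp5 (Pals1) binds the multi-PDZ scaffold Patj, and by the PAR complex, in which Pard3 and Pard6b work with atypical protein kinase C. Loss of junction and polarity proteins is a known feature of carcinoma cells that turn mesenchymal.

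Bulk RNA was sequenced from 4T1-Thy1.1 cells, a mammary carcinoma line of BALB/c mice that carries a Thy1.1 transgene in every group. Cells in 12-well plates were left untreated for 48 hours (control, n = 3) or kept as long with 200 ng/ml DOX, a topoisomerase poison (n = 4), with 25 ng/mL recombinant mouse IL-17A, an inflammatory cytokine of T cells (n = 3), or with both (DOX+IL-17A, n = 3). The labels give DMEM/F12 with FBS as the medium of every group, whereas the study's methods name RPMI for culture of the line. The study's methods speak of biological replicates for its data in general. The labels number the replicates and do not say whether these libraries came from separate cultures, so that p-values measure only the spread between these libraries, which may be technical. The results bear on 1 cell line in culture, and in bulk RNA fewer expressing cells and less RNA per cell cannot be told apart.

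The values are CPM, read counts scaled to the library total, after TMM scaling (trimmed mean of M values, which corrects for differences in library composition). They come from a protocol that reads only the 3′ end of each transcript. Libraries held 4445592 to 16930600 reads on the listed genes, and a member had 44 to 3043 reads in a library. The epithelial markers *Epcam*, *Krt7*, *Krt8*, *Krt18*, *Krt19* and *Cdh1* were above 0 in every library, with a summed value of 1932 to 2248 in control, 1706 to 2050 with IL-17A, 935 to 1034 with DOX and 816 to 1033 with DOX+IL-17A. Thus 5 of these 6 markers fell with DOX (limma, Benjamini-Hochberg adjusted p under 0.05), and their part in the results below was not tested. None of 4 endothelial markers was in the table. Control replicate 1 stood apart from the other control libraries, with a summed value of 7 skeletal muscle markers of 32.6, the highest of its group. DOX replicate 1 had the highest sum of these markers (218) and of the 3 red blood cell markers found (66.5). The 5 fibroblast markers found summed to 27.9 to 143, and the 2 immune markers found, *Ptprc* and *Csf1r*, to 2.14 to 35.6. None of these, nor of the muscle and red blood cell markers, passed the adjusted p in DOX against control. With DOX+IL-17A, *Dcn* (1.43 to 2.43, against 0.169 to 0.304 in control and 0 to 0.113 with IL-17A) and *Ptprc* (2.45 to 3.58, against 0.0609 to 1.52 and 0 to 0.314) were low but higher than in both groups (limma adjusted p = 0.00744 to 0.0256). The part of these markers in the results was not tested. For the 9 genes, results that pass or cease to pass the test without control replicate 1 are given with and without it.

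In the mouse genome (GRCm38, GENCODE M21) all 9 are protein-coding and lie on 8 chromosomes. *Cldn3* (chromosome 5, 134986214 to 134987472, plus strand) and *Cldn4* (chromosome 5, 134945119 to 134946934, minus strand) start 39.3 kb apart and are transcribed away from each other. *Cldn7* lies on chromosome 11 (69964779 to 69967885), *F11r* on chromosome 1 (171437535 to 171464603), *Pard6b* on chromosome 2 (168081004 to 168101203) and *Mpp5* on chromosome 12 (78748907 to 78840714), each on the plus strand. *Patj* lies on chromosome 4 (98395785 to 98719603) and *Pard3* on chromosome 8 (127063893 to 127612286), both on the plus strand, and *Tjp1* on the minus strand of chromosome 7 (65296165 to 65527781). An exon of *Cldn3* overlaps *Wbscr25* on the opposite strand, and without a stated strand setting their reads cannot be told apart. No other member shares exon sequence with another gene.

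Upstream sequences are shown for the 3 genes that passed as lower with DOX, *Tjp1* not in every alternative. The neighbours *Cldn3* and *Cldn4*, whose values did not move together, are shown as well. These sequences precede the first start for which one was available, which for *Tjp1* lies within the gene. They come from the 250 bases before the start in RefSeq (GRCm38.p6), cut where GENCODE already places an exon of the gene (209 bases left for *Patj* and 87 for *Pard3*), 5′ to 3′ on the strand of the gene, in the order *Patj* (plus strand), *Pard3* (plus), *Tjp1* (minus), *Cldn3* (plus) and *Cldn4* (minus). Capitals mark GGGCGG (the GC box bound by Sp1), CAGGTG (the E-box bound by the Snail and Zeb repressors of junction genes) and AACCGGTT (a site of the Grainyhead-like activators), each searched on both strands.
Patj, chr4:98395576-98395784: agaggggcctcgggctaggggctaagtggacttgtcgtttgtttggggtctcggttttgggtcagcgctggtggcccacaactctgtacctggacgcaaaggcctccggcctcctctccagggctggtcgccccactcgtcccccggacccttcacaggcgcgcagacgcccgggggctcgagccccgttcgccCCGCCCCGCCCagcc
Pard3, chr8:127063806-127063892: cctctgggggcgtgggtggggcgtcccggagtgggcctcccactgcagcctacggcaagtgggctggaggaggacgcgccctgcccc
Tjp1, chr7:65371245-65371494: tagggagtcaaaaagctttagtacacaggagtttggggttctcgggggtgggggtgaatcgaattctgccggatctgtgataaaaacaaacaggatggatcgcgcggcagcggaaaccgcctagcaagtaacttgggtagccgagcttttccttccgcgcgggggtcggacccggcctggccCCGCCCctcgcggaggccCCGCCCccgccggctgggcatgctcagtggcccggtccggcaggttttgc
Cldn3, chr5:134985964-134986213: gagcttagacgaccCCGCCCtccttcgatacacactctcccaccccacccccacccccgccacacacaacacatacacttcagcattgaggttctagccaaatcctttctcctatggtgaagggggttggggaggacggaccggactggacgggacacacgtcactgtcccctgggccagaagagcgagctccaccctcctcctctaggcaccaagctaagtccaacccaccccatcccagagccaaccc
Cldn4, chr5:134946935-134947184: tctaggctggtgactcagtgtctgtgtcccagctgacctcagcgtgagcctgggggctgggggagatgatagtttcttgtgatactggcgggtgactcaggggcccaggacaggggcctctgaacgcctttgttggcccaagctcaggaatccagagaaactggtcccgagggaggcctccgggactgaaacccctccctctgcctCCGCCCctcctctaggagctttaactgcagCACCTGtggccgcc

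The table held such a sequence for 8 of the 9 genes. Over the full 250 bases before the first start, a GC box was found for 7 of 8 genes, *Cldn7* being the exception, and in 32.7% of all 32851 upstream sequences of this length, in which a gene can have several starts. The E-box was found for *Cldn4*, *F11r*, *Patj* and *Pard6b*, against 17.2% of all sequences. *Pard3* and *Tjp1* did not have it there, but the second annotated start of *Pard3* had 3 E-boxes and no GC box. The second start of *Cldn7* had 1 GC box and 2 E-boxes, and the other two starts of *Patj* had neither motif. The E-box of *Patj* and the GC box of *Pard3* lie in the stretch cut above. The GC boxes of *Patj* share a base, and no other printed motifs overlap. The motifs were chosen after the members' values were seen. The GRHL site was in none of the 8 and in 0.116% of all sequences. GC content was 71.2% for *Patj*, 79.2% for *Pard3*, 63.2% for *Tjp1*, 60.8% for *Cldn3* and 62.0% for *Cldn4*, against a median of 52.4% over all sequences. The start shown for *Tjp1* lies inside the span that GENCODE gives the gene and is not the most upstream one. The motifs and GC content given for *Tjp1* hold for that start only.

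Values below are given in the order of the replicate numbers: 1, 3 and 5 for control, 1 to 4 for DOX, and 2, 3 and 5 for DOX+IL-17A and for IL-17A. Differences were tested with limma on log2(value + 1) over all 12319 genes and all 13 libraries, with Benjamini-Hochberg adjustment within each comparison. Calls needed more than a 2-fold difference besides an adjusted p under 0.05, and the count at the adjusted p alone is given beside them. Fold changes of genes with few reads are understated by the pseudocount of 1. DOX, DOX+IL-17A and IL-17A were each compared with the same 3 control libraries, so that these comparisons are not independent. A single member in 4 against 3 libraries cannot reach a p below 0.0571 in the exact 2-sided permutation test, and in 3 against 3 none below 0.10.

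**Figure D1:**
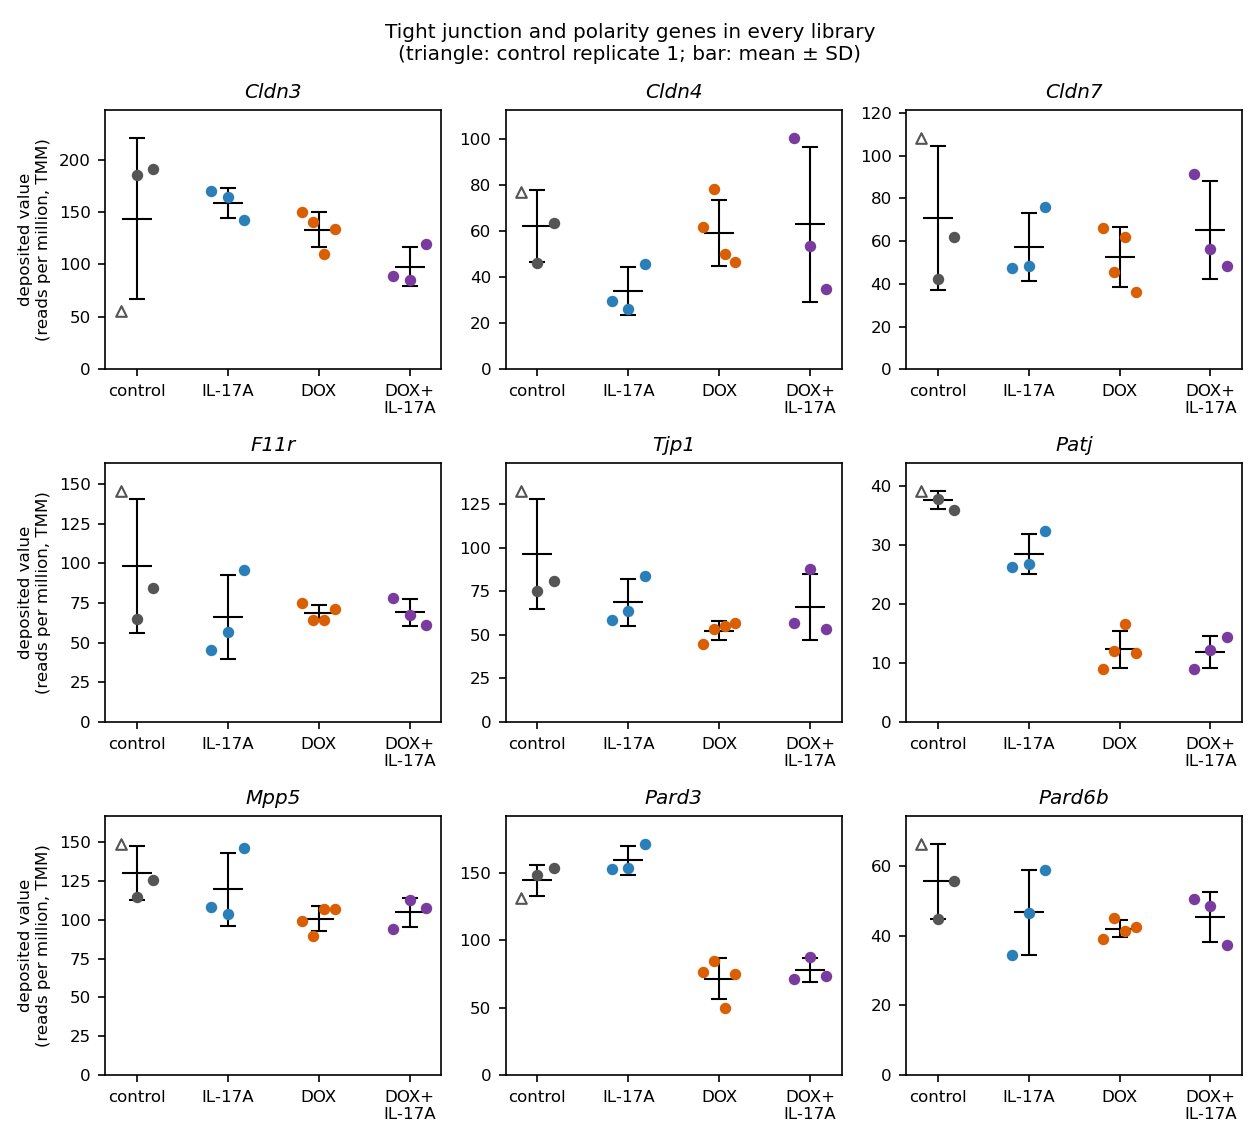
Value of each of the 9 genes (vertical axis, TMM-scaled CPM, from 0) in every library by group (horizontal axis), with the mean and SD as bars and control replicate 1 as an open triangle. *Patj* and *Pard3* were lower in all 7 libraries with DOX than in all 6 without it, whereas the claudin groups overlapped between DOX and control.

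The first question was which junction and polarity transcripts change in carcinoma cells kept with DOX. *Patj* and *Pard3*, both scaffolds of the apical polarity complexes, were lower than in control by more than 2-fold. These 2 of 9 members were called lower, against 6.18% of all genes tested, and with *Tjp1* 3 of 9 passed the adjusted p alone, against 9.71%. No member was called higher, against 9.15% of all genes, and none was higher at the adjusted p alone, against 12.4%. The groups did not overlap, with DOX lower, for *Patj*, *Pard3*, *Tjp1* and *Mpp5*, or 4 of 9 members against 15.2% of all genes. The median log2 fold change of the members was -0.38, against 0.09 over all genes tested. With scaling by library size alone the median of all genes moved to 0.24 and that of the members to -0.21, so that the members stayed below it. The share of all genes that passed the adjusted p and were lower then fell to 6.74%. The members' median was not low with DOX alone. In IL-17A against the same control libraries it was -0.26, against 0.02 over all genes tested. In DOX+IL-17A against control it was -0.37 against 0.04, and in DOX+IL-17A against IL-17A -0.08 against 0.02.

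*Patj*, the large scaffold of the Crumbs complex, stood at 39.1, 37.8 and 36 in control and at 9.01, 12.0, 16.6 and 11.7 with DOX. Every DOX library was below every control library. The mean fell from 37.6 ± 1.57 (SD, n = 3) to 12.3 ± 3.16 (SD, n = 4), a log2 fold change of -1.56 (standard error 0.26, 95% interval -2.11 to -1.01, limma adjusted p = 0.000862). The exact permutation p was 0.0571, the smallest that these groups allow.

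*Pard3*, the scaffold that brings the PAR complex to the junction, stood at 132, 148 and 154 in control and at 76.5, 84.8, 49.6 and 74.8 with DOX. The groups were far apart, and DOX replicate 3 was the lowest. The log2 fold change was -1.03 (standard error 0.20, 95% interval -1.45 to -0.61, limma adjusted p = 0.00231), close to the 2-fold threshold. Its partner *Pard6b* stood at 66.3, 44.7 and 55.6 in control and at 39.1, 45.0, 41.2 and 42.4 with DOX. DOX replicate 2 was above the lowest control library, so that the groups overlapped, and the log2 fold change of -0.38 (95% interval -0.86 to 0.10) did not pass the test (limma adjusted p = 0.233).

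*Tjp1*, the ZO-1 scaffold, stood at 132, 75.4 and 80.9 in control and at 44.8, 53.1, 55.4 and 56.7 with DOX. The DOX libraries lay close together and below the control libraries, of which replicate 1 was far the highest. The log2 fold change was -0.82 (standard error 0.24, limma adjusted p = 0.0251). Without control replicate 1 it was -0.57 and no longer passed (adjusted p = 0.0852), nor did it without DOX replicate 1 (-0.75, adjusted p = 0.0656) or without DOX replicate 2 (-0.83, adjusted p = 0.05). Scaling by library size alone gave -0.65 (adjusted p = 0.0645), and the replicate number as a block -0.84 (adjusted p = 0.0695). The direction was kept in each of these fits.

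*Mpp5*, the adaptor that binds Patj to Crumbs, stood at 149, 115 and 126 in control and at 99.6, 89.8, 107 and 107 with DOX. Its groups did not overlap, but the difference was small beside the spread (log2 fold change -0.36, 95% interval -0.75 to 0.03, limma adjusted p = 0.17). Thus within the Crumbs complex the value of *Patj* fell by more than 2-fold, while that of its partner differed by less than the test could call.

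*F11r* stood at 146, 65.0 and 84.4 in control and at 74.9, 64.6, 64.5 and 71.0 with DOX. The groups overlapped, and control replicate 1 was again the highest library. The log2 fold change was -0.43 (95% interval -1.02 to 0.16, limma adjusted p = 0.276).

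Among the claudins, *Cldn3* stood at 55.1, 185 and 191 in control and at 149.8, 140.1, 109.9 and 133 with DOX. Control replicate 1 was below all other libraries of the series, at 0.29 times the mean of the other control libraries. The log2 fold change of 0.08 (95% interval -0.62 to 0.78, limma adjusted p = 0.886) turned to -0.50 without that library, with an adjusted p of 0.0679. *Cldn4* stood at 76.8, 46.0 and 63.5 in control and at 61.5, 78.2, 49.9 and 46.3 with DOX, and the groups overlapped throughout their range. Its log2 fold change was -0.07 (95% interval -0.76 to 0.62, limma adjusted p = 0.897). *Cldn7* stood at 108, 42.4 and 61.9 in control and at 66.3, 45.8, 61.8 and 36.1 with DOX, where control replicate 1 was once more the highest. Its log2 fold change was -0.36 (95% interval -1.05 to 0.33, limma adjusted p = 0.443). These intervals include changes of more than 1.5-fold, so that the claudins are not shown to be unchanged.

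**Figure D2:**
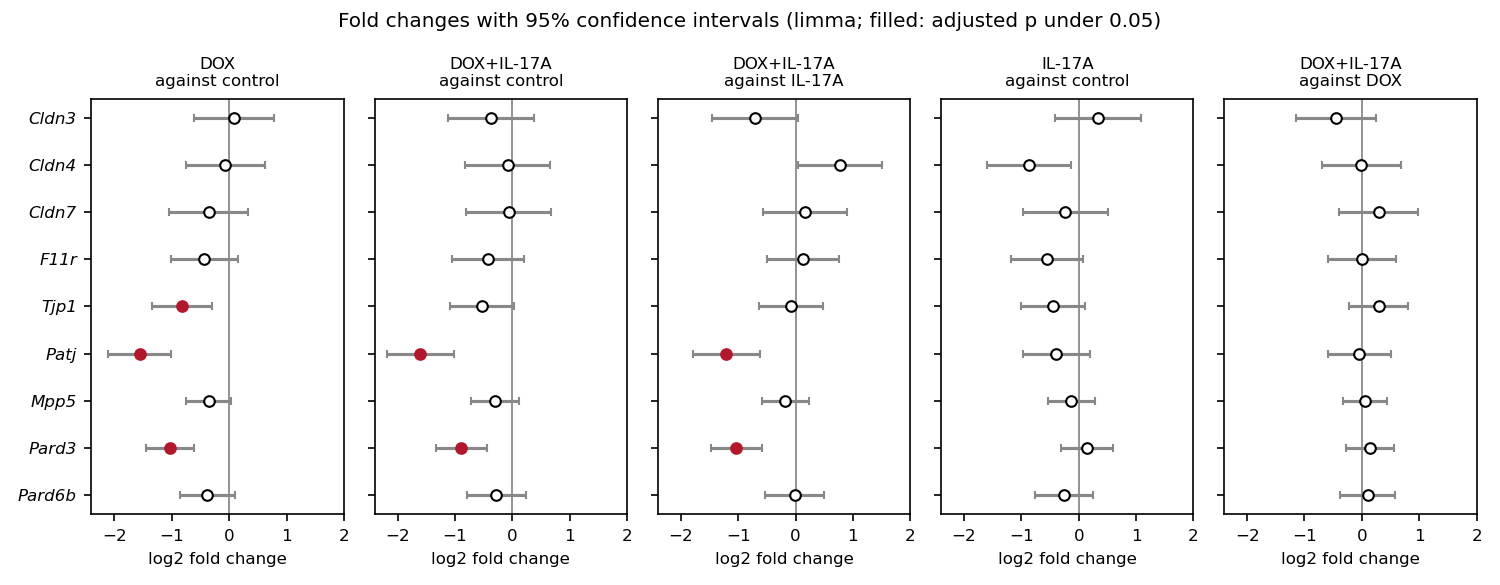
Log2 fold change (horizontal axis, on log2(value + 1)) of each of the 9 genes (vertical axis) in the 5 comparisons, with its 95% confidence interval from limma; filled points passed an adjusted p of 0.05. *Patj* and *Pard3* lie left of 0 in the 3 comparisons of cells with DOX against cells without it, and no point is filled for IL-17A against control or DOX+IL-17A against DOX.

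The second question was whether the same genes differ when IL-17A is given together with DOX. With DOX+IL-17A against control, *Patj* was called lower, or 1 of 9 members against 5.95% of all genes tested. With *Pard3* 2 of 9 members passed the adjusted p alone, against 8.34% of all genes in that direction, and none was higher, against 9.37%. *Patj* stood at 9.0, 12.2 and 14.5, below every control library (log2 fold change -1.60, standard error 0.27, limma adjusted p = 0.00145). *Pard3* stood at 71.4, 87.9 and 73.7, also below every control library (-0.89, standard error 0.21, limma adjusted p = 0.0102). In a fit of these 2 groups alone its adjusted p was 0.0638.

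The groups did not overlap, with DOX+IL-17A lower, for *Patj*, *Pard3* and *Mpp5*, or 3 of 9 members against 14.5% of all genes. *Mpp5* stood at 94.1, 112 and 108 (log2 fold change -0.30, limma adjusted p = 0.301). *Tjp1*, at 56.6, 88.0 and 53.4, overlapped with control through replicate 3 (-0.53, 95% interval -1.08 to 0.02, limma adjusted p = 0.172).

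*Cldn3* stood at 89.2, 85.0 and 119.8 with DOX+IL-17A. These values lay between control replicate 1 and the other control libraries, which set the result. The log2 fold change was -0.37 with all libraries (limma adjusted p = 0.5) and -0.95 without control replicate 1 (adjusted p = 0.00373). *Cldn4*, at 100.2, 53.4 and 34.9, and *Cldn7*, at 91.4, 56.3 and 48.2, overlapped with control, with log2 fold changes of -0.08 and -0.06. *F11r* stood at 78.3, 67.8 and 61.4, and *Pard6b* at 50.5, 48.7 and 37.2, and neither passed the test (limma adjusted p = 0.339 and 0.448).

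The third comparison set DOX+IL-17A against IL-17A, which asks for the DOX difference in cells that all had IL-17A and uses none of the control libraries. *Patj* and *Pard3* were called lower, or 2 of 9 members against 4.92% of all genes tested. *Patj* stood at 26.4, 26.7 and 32.3 with IL-17A alone, above every DOX+IL-17A library (log2 fold change -1.21, standard error 0.27, limma adjusted p = 0.0108). *Pard3* stood at 153, 154 and 172 with IL-17A alone (-1.03, standard error 0.21, limma adjusted p = 0.00638). *Cldn3*, at 169.9, 164 and 143 with IL-17A alone, was the third member whose groups did not overlap, so that 3 of 9 members were lower in this way against 15.5% of all genes. Its log2 fold change of -0.71 did not pass the test (limma adjusted p = 0.201), but did without control replicate 1, which enters this comparison through the estimate of the spread (adjusted p = 0.0103). *Cldn4* had the opposite sign (0.78, 95% interval 0.04 to 1.52), and this too did not pass (limma adjusted p = 0.151) unless DOX+IL-17A replicate 5 was left out (1.13, adjusted p = 0.0488). The other 5 members had log2 fold changes between -0.18 and 0.17, with *Tjp1* at -0.08 (limma adjusted p = 0.881).

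The fourth question was what IL-17A does on its own. No member was called, and 1 gene of the 12319 was (0.00812%). *Cldn4* stood at 29.7, 26.2 and 45.7, just below the lowest control library at 46.0. Its mean was 33.9 ± 10.4 (SD, n = 3) against 62.1 ± 15.5 (SD, n = 3), a log2 fold change of -0.86 (95% interval -1.60 to -0.13). It was the only member with an unadjusted limma p under 0.05 (0.0243), as 3.08% of all genes had, and the adjusted p was 0.959. *Patj*, at 26.4, 26.7 and 32.3, was likewise below every control library (-0.39, 95% interval -0.98 to 0.19). These 2 of 9 members compare with 2.87% of all genes whose groups did not overlap with IL-17A lower.

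The other members overlapped with control. *Tjp1* stood at 58.5, 63.8 and 83.9 with IL-17A (log2 fold change -0.45), and *F11r* at 45.5, 56.8 and 96.2 (-0.55). *Cldn7*, at 47.6, 48.4 and 75.9, *Pard6b*, at 34.6, 46.5 and 59.0, and *Mpp5*, at 108, 104 and 146, had log2 fold changes of -0.23, -0.26 and -0.13. In IL-17A replicate 5 these 5 members were at their highest of the group, as were *Cldn4*, *Patj* and *Pard3*, whereas *Cldn3* was at its lowest. *Pard3* and *Cldn3* had positive values (0.14 and 0.34), and that of *Cldn3* was -0.25 without control replicate 1.

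The last question was whether IL-17A altered the picture under DOX. No member was called in DOX+IL-17A against DOX, where 0.438% of all genes were, and none had an unadjusted p under 0.05, as 6.35% of all genes had. For *Patj* the log2 fold change was -0.04 (95% interval -0.59 to 0.50) and for *Pard3* 0.14 (95% interval -0.28 to 0.56). The value furthest from 0 was that of *Cldn3* (-0.45, 95% interval -1.15 to 0.25), and its groups overlapped. No member's groups were apart with DOX+IL-17A lower, against 5.61% of all genes. The difference between the IL-17A effect with and without DOX was tested as an interaction. It was past the adjusted p for 0 of the 12319 genes (0%) in limma, where 556 had an unadjusted p under 0.05, and edgeR and DESeq2 also called no member. The member with the smallest unadjusted p in limma (0.0531) was *Tjp1*, with a difference of 0.74 (95% interval -0.01 to 1.5).

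The members differed in length, which the choice of names did not use. *Pard3* spans 548 kb, *Patj* 324 kb and *Tjp1* 232 kb, whereas *Mpp5* spans 91.8 kb, *F11r* 27.1 kb, *Pard6b* 20.2 kb and the claudins 1.26 to 3.11 kb. The 3 longest were the 3 that passed the adjusted p in DOX against control, *Tjp1* not in every alternative. Over the 12189 tested genes with a span, the Spearman correlation of span with the DOX log2 fold change was only -0.14. The same division was then made for all genes, with classes chosen after the members' values were seen. Of 509 genes that span 200 kb or more, 29.3% were lower at the adjusted p, with a median log2 fold change of -0.36. In the class of 100 to 200 kb the values were 22.5% and -0.30 (973 genes), and from 30 to 100 kb 9.39% and 0.01 (3451 genes). Genes of 10 to 30 kb had 5.18% and 0.25 (3939 genes), and those under 10 kb 8.71% and 0.17 (3317 genes). Leaving out control replicate 1 gave a median of -0.38 in the longest class and 0.12 in the shortest, and spans from RefSeq gave -0.39 and 0.18. With scaling by library size alone these medians were -0.21 and 0.31, around the moved median of all genes. With IL-17A against control the medians were -0.07 and 0.05, and in DOX+IL-17A against IL-17A, which share no library with DOX or control, they were -0.35 and 0.06. In the longest class 8.84% of genes were higher in DOX against control, and the quartiles were -0.99 and 0.43. *Patj*, *Pard3* and *Tjp1* were below the median of this class, which is no separate result, since they had passed as lower. *Tjp1* lay within the quartiles.

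**Figure D3:**
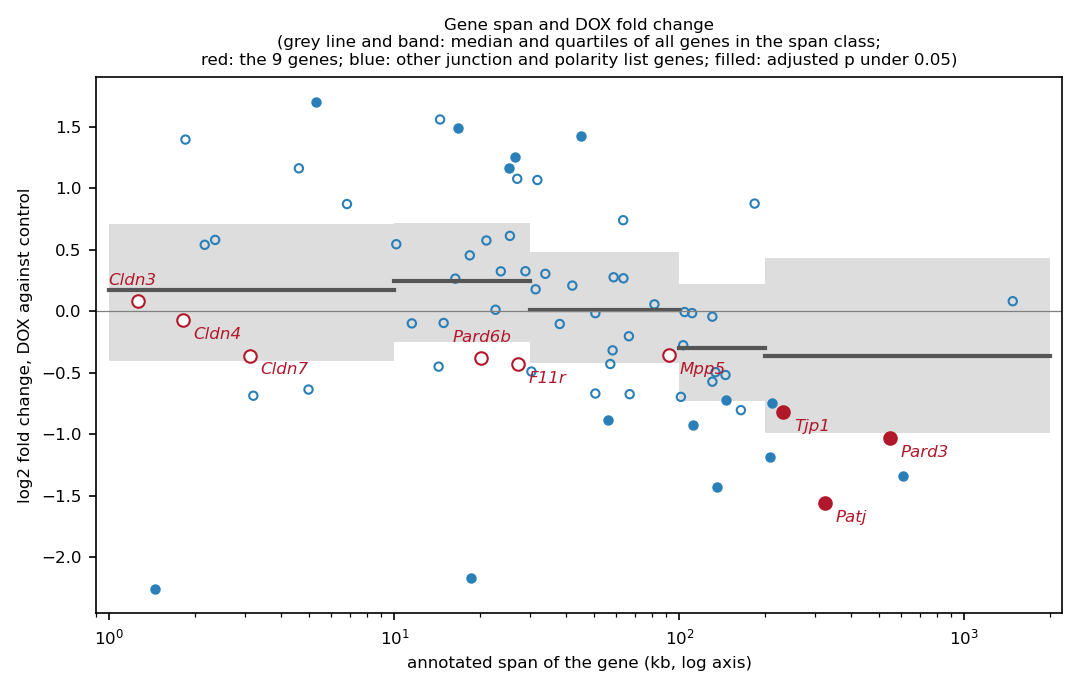
Log2 fold change in DOX against control (vertical axis) by annotated gene span (horizontal axis, kb, log scale). Grey lines and bands are the median and quartiles of all tested genes in each of 5 span classes, from 0.17 in the shortest to -0.36 in the longest; red points are the 9 genes, blue points other genes of the junction and polarity lists, and filled points passed an adjusted p of 0.05.

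Other genes of the junction and its partners were taken from lists by known function. For the counts below, 9.71% of all genes tested were lower with DOX at the adjusted p alone, and 12.4% were higher. Among other claudins and tetraspan proteins 7 of 21 were tested, and 2 passed the adjusted p with DOX, both lower. *Cldn9* went from 12.1 to 16.2 in control to 0.84 to 3.72 with DOX (log2 fold change -2.26, standard error 0.38, limma adjusted p = 0.000934). *Ocln*, occludin, went from 13.3 to 26.4 to 8.29 to 11.8 (-0.88, limma adjusted p = 0.0358). *Ocln* no longer passed without control replicate 1 (adjusted p = 0.119), with scaling by library size alone (0.0737) or with the replicate block (0.0854). Of 5 adhesion proteins tested, *Nectin4* fell, from 7.11 to 9.93 in control to 0.56 to 1.42 (-2.17, limma adjusted p = 0.000834).

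Of 17 other plaque proteins, 3 rose and 3 fell with DOX, and their median was 0.08 against 0.09 over all genes. The ones that fell were *Magi3*, *Magi1* and *Afdn*, scaffolds with PDZ domains. *Magi3* went from 97.4 to 121 in control to 42.4 to 55.3 (log2 fold change -1.19, limma adjusted p = 0.000893), and *Magi1* from 38.4 to 42.6 to 11.8 to 20.1 (-1.34, limma adjusted p = 0.00727). *Afdn*, afadin, went from 313 to 376 to 187 to 223 (-0.72, limma adjusted p = 0.0109). *Amotl2*, an angiomotin, rose from 21.3 to 44.5 to 84.9 to 100.1 (1.49, limma adjusted p = 0.00216). The other two that rose, *Cgn* (cingulin) and *Tjap1*, are named because they complete the count, after their values were seen. Neither passed without control replicate 1 (adjusted p = 0.0732 and 0.142). *Amotl1*, named after its values were seen, passed as lower without that library (-0.62, limma adjusted p = 0.0305, against 0.443 with it).

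No gene of 9 other apical polarity proteins passed with DOX, and *Lin7c*, which binds Mpp5, rose with DOX+IL-17A (0.88, limma adjusted p = 0.0207). It no longer passed with the replicate block (adjusted p = 0.0813) or without control replicate 1 and DOX replicate 1 together (0.0545). In DOX+IL-17A against IL-17A *Lin7c* was also higher (0.84, limma adjusted p = 0.0308). In DOX against control it passed as higher with scaling by library size alone (0.72, limma adjusted p = 0.0373, against 0.0912 with TMM scaling). In the basolateral Scribble group 2 of 6 fell with DOX, *Dlg1* (-0.75, limma adjusted p = 0.0192) and *Dlg5* (-0.93, limma adjusted p = 0.0275). Both were below 2-fold. *Dlg5* no longer passed without control replicate 1 (adjusted p = 0.083) or with the replicate block (0.108), nor did *Dlg1* with scaling by library size alone (0.0703). Of 6 adherens junction proteins 1 fell, *Ctnna1* (α-catenin), from 148 to 349 in control to 69.0 to 89.3 (-1.43, limma adjusted p = 0.00152). With DOX+IL-17A against control *Cldn9*, *Nectin4*, *Magi1*, *Magi3*, *Afdn*, *Dlg1* and *Ctnna1* also passed and were lower, and *Amotl2* was higher. Of these, *Dlg1* and *Afdn* no longer passed with scaling by library size alone (adjusted p = 0.0836 and 0.0565), nor did *Afdn* with the replicate block (0.0742). Without control replicate 1 *Amotl1* (-0.96, adjusted p = 0.00385) and *Ybx3* (0.56, adjusted p = 0.0447) passed as well, both named after their values were seen. Of the 4 other list genes that span 200 kb or more, 3 were lower with DOX (*Magi1*, *Magi3* and *Dlg1*), against 29.3% of all genes of that span. Of the 13 that span 100 to 200 kb, 3 were lower, close to the 22.5% of all genes of that span. The one left of the 4, *Magi2*, is the longest list gene at 1478 kb and did not pass (0.08, limma adjusted p = 0.881). It is named after its values were seen.

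Of 11 transcription factors known to act on epithelial junction genes, 2 rose with DOX, against 12.4% of all genes tested. None fell, against 9.71%. The median of the 11 was 0.54 against 0.09 over all genes, and the list pools activators with repressors of junction genes. *Klf4*, a Krüppel-like factor of differentiated epithelia, went from 17.4 to 27.9 in control to 64.2 to 78.0 with DOX (log2 fold change 1.71, standard error 0.27, limma adjusted p = 0.000678). With DOX+IL-17A it stood at 23.1 to 34.9, which did not pass against control (0.45, limma adjusted p = 0.298) or against DOX (-1.25, limma adjusted p = 0.0625). Without control replicate 1, which enters the latter comparison through the estimate of the spread, the adjusted p against DOX was 0.0269. *Grhl1*, a Grainyhead-like factor, was near the floor of 3 reads, at 0 to 0.707 in control and 1.68 to 5.04 with DOX (limma adjusted p = 0.0472). It no longer passed without control replicate 1 (adjusted p = 0.0625) or with the replicate block (0.145).

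**Figure D4:**
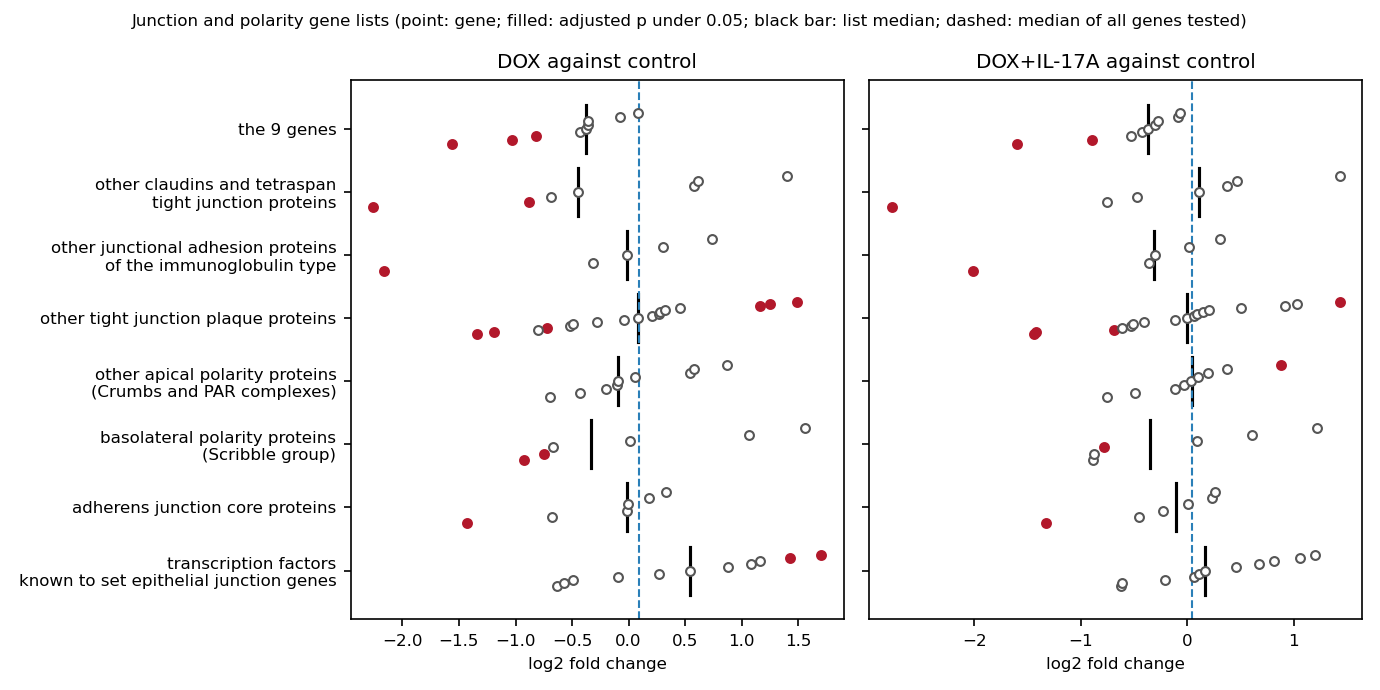
Log2 fold change (horizontal axis) of each tested gene in the list of 9 and in 7 further lists (vertical axis) for DOX and for DOX+IL-17A against control. Filled points passed an adjusted p of 0.05, black bars are list medians, and the dashed line is the median of all genes tested (0.09 and 0.04).

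Over the 13 libraries the members fell into differing patterns. *Patj* and *Pard3* had a Pearson r of 0.82 on log2(value + 1), and *F11r* had 0.86 with *Pard6b* and 0.75 with *Cldn7*. *Tjp1* had 0.84 with *Mpp5* and 0.81 with *Pard6b*. *Cldn3* had negative values with *Cldn7* (-0.64), *F11r* (-0.59) and its neighbour *Cldn4* (-0.48). These correlations describe libraries that share conditions, depth and control replicate 1, in which *Cldn3* was low and *Cldn7* (2.08 times the mean of the other control libraries), *F11r* (1.95 times) and *Tjp1* (1.70 times) were high. Among 8198 genes with a mean value of at least 10, those most like *Patj* were *Zfp260* (r = 0.972) and *Mtss1* (r = 0.965), and those most like *Pard3* were *Ptprk* (r = 0.973) and *Usp47* (r = 0.970). For *Tjp1* they were *Palld* and *Eml5*, for *Mpp5* *Wasf2* and *Specc1*, for *F11r* *Exoc3* and *Slc44a2*, and for *Pard6b* *Dpp8* and *Gm6987*. For *Cldn3* they were *Lztr1* and *Sec22a*, for *Cldn4* *Atp6v0a1* and *Egr1*, and for *Cldn7* *Flot2* and *Atg7*, with r of 0.877 to 0.963 over these 14 genes.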

How the data were processed

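RNA of 4T1-Thy1.1 cells was sequenced as 13 libraries of 3′ mRNA. Per the labels and the study's methods, the authors used FastQC, Trimmomatic, STAR (genome mm10) and featureCounts, and scaled the gene counts by TMM. The strand setting and annotation are not given in the sources used here. The deposited values are a signal, TMM-scaled CPM, for 13223 entries. One second *Ifit1* entry that was the same as the first was left out. In each library 100% of values were whole multiples of a step (within 0.1 read), which gave whole reads for the count tests, and 17 gene names had turned into dates. A value of 3 reads was 0.183 to 0.613, and this covers counting error only. Replicates differed by more than sampling noise in every group.

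Values were tested with limma 3.58.1 (R 4.3.3) with a trend on log2(value + 1), condition as the only factor, genes kept by filterByExpr of edgeR 4.0.16, and 9 residual degrees of freedom. Single values had the 2-sided exact permutation test of scipy 1.17.1. The scripts were tested on simulated data. The members and gene lists were chosen with earlier results of these data known. From each list up to 4 genes past the adjusted p in any comparison were named, by the smallest in DOX against control, and for each member the 2 genes of highest r. Alternatives were voom, edgeR, DESeq2 1.42.0, other scaling, filters and pseudocount (0.1), the groups compared alone, a replicate block, and leaving out libraries. Leaving out control replicate 1 with DOX replicate 1 was chosen after seeing the data.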

Additional observations from a re-analysis of the deposited data

How the results depend on the processing

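*Patj* passed the adjusted p in DOX against control, DOX+IL-17A against control and DOX+IL-17A against IL-17A under all 23 alternatives, and *Pard3* under all but 1, the fit of only the groups compared in DOX+IL-17A against control. Both kept their sign there. Counts at adjusted p and fold moved where a log2 fold change of *Pard3*, or in 1 fit of *Patj*, came under 2-fold. Members called in DOX against control went from 2 to 1 with scaling by library size, and were 1 to 2 when a library was left out (1 without control replicate 5 and without DOX replicate 3). In DOX+IL-17A against IL-17A they went from 2 to 0 with scaling by library size (*Patj* at -0.9998, *Pard3* at -0.81) and were 1 to 2 when a library was left out (1 without DOX+IL-17A replicate 2 and without IL-17A replicate 5). In DOX+IL-17A against control they went from 1 to 2 at the adjusted p alone. Without control replicate 1 and DOX replicate 1 together the counts were 2, 1 and 2, and the adjusted p of *Tjp1* in DOX against control was 0.172.

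Sign changes were 48 of 1035 values, none past the adjusted p. In DOX against control, *Cldn3* was -0.11 by edgeR, -0.14 by DESeq2, -0.56 without both libraries and -0.50 to 0.38 when 1 was left out, and *Cldn4* 0.10 by library size, 0.0643 without both and -0.27 to 0.0939. In DOX+IL-17A against control, *Cldn4* was 0.0166 by edgeR, 0.0899 by library size, 0.0815 without both and -0.48 to 0.26, and *Cldn7* 0.11 by library size, 0.13 with the block, 0.29 without both and -0.38 to 0.29. In IL-17A against control, *Cldn3* was -0.25 without both and -0.25 to 0.64, and *Cldn7* 0.12 and -0.54 to 0.12. In DOX+IL-17A against DOX, *Cldn4* was 0.0864 by edgeR, 0.11 by DESeq2, 0.0172 without both and -0.41 to 0.34, *F11r* -0.0198 by voom and -0.0874 to 0.0861, *Patj* 0.0798 by voom and -0.19 to 0.13, and *Pard3* -0.0226 to 0.23. In DOX+IL-17A against IL-17A by library size, *Tjp1* was 0.14, *Pard6b* 0.20 and *Mpp5* 0.0428, and leaving 1 out gave -0.30 to 0.0736 for *Tjp1*, -0.21 to 0.16 for *Pard6b*, -0.10 to 0.38 for *Cldn7* and -0.10 to 0.43 for *F11r*. The cause was not tested.

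Libraries with the same number had a mean correlation of 0.15 over 13 pairs, of which 8 were over 0.1, against -0.04 over 50 pairs of different numbers, of which 13 were over 0.1. Since not every pair with the same number was over 0.1 and the labels do not say what a number marks, libraries were not paired. That rule cannot show that no batch was shared by number, and such a batch was not tested beyond the fit with a replicate block. With the replicate block 2, 1 and 2 members were called in the comparisons named first, and *Tjp1* in DOX against control had an adjusted p of 0.0695. Groups of 3 or 4 libraries leave intervals that include 1.5-fold changes of the claudins.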
